A study of Homo sapiens with 6 samples.

Results

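Transcripts of 10 tumor cell cytokines and chemokines were measured by RNA-seq in KYSE70, an esophageal squamous cell carcinoma (ESCC) line of human origin whose NFE2L2 gene is mutant, and in NRF2null-KYSE70, made from it by CRISPR-Cas9 cutting within exon 2 of NFE2L2. The members are named genes, taken by symbol with no threshold on their values, and are CXCL1, CXCL2, CXCL3, CXCL5, CXCL8, IL1A, IL1B, IL6, IL11 and LIF, 10 of the 58884 genes in the table. The set was chosen with earlier results of these data known. Each line had 3 libraries of untreated cells in RPMI1640 medium with fetal bovine serum. NRF2null-KYSE70 is 1 clone grown from a single cell, and the study still saw a faint NRF2 band of lower molecular weight in it, so each difference below is between this clone and its parental line. RNA was measured, not secreted protein. In RNA from bulk culture, a change in the share of cells that express a gene and a change in RNA per cell cannot be told apart.

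CXCL1, CXCL2, CXCL3, CXCL5 and CXCL8 are chemokines of the ELR type, which draw neutrophils through the receptors CXCR1 and CXCR2. IL1A and IL1B are the agonists of the IL-1 receptor, whose signal runs through MYD88 and IRAK kinases to the transcription factor NF-kappaB. IL6, IL11 and LIF signal through the shared receptor chain gp130, encoded by IL6ST, to JAK kinases and STAT3. Squamous epithelial cells are known to keep IL-1 alpha inside the cell and to release ELR chemokines on injury. NRF2, the product of NFE2L2, is best known as an activator of antioxidant genes.

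The libraries held 52072801 to 63975313 assigned reads, and a floor of 3 reads per library is used for detection. Values are normalized counts, that is, reads divided by 1 size factor per library. NFE2L2 itself stood at 9839, 9906 and 10040 in KYSE70 and at 5803, 6041 and 6434 in NRF2null-KYSE70, 61.4% of the parental mean. RNA of the cut gene was therefore lower but present, and its level does not by itself show loss of the protein. All 10 squamous epithelium markers were measured in both lines, with KRT5, KRT6A, TP63 and EPCAM abundant and summed levels of 353133 to 359000 in KYSE70 and 262876 to 273192 in NRF2null-KYSE70. By adjusted p 5 of these markers were higher and 5 lower, and 1 (KRT14) passed the fold change cut-off, higher. Of the 8 leukocyte markers, PTPRC was tested and was higher, with 1 read in all 3 KYSE70 libraries together and values of 42.6, 40.2 and 47.9 in NRF2null-KYSE70. PTPRC was tested only because of its NRF2null-KYSE70 values, so the limma count of leukocyte markers depends on the filter. CD3E and MS4A1 had at most 1 read over all libraries of a line, and the leukocyte sum lay between 12.7 and 40.1 in KYSE70 and between 42.2 and 63.9 in NRF2null-KYSE70. PTPRC made up most of the sum in each NRF2null-KYSE70 library. By the full rule limma and edgeR each called 1 leukocyte marker higher and 0 lower, and DESeq2 called 1 higher and 1 lower. Among 6 fibroblast markers, COL1A1 and COL3A1 were lower and COL1A2 and DCN were listed at 0, with sums of 1384 to 1618 against 485 to 638. By the full rule limma called 0 fibroblast markers higher and 2 lower, whereas DESeq2 and edgeR each called 1 higher and 2 lower. Among 4 endothelial markers, VWF was higher, while PECAM1, CDH5 and KDR had at most 1 read, and the sums were 133 to 149 against 275 to 450. The part of other cell types in the results was not tested.

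Of the 10 genes, IL1A, IL1B, CXCL1 and CXCL8 rose between 7.41-fold and 25.9-fold in NRF2null-KYSE70, LIF rose by less than the cut-off, CXCL3 and IL11 did not pass the test, and CXCL2, CXCL5 and IL6 were at or near 0 in both lines. A gene was tested where its mean was at least 10, which held for 7 of the 10. A gene passed at an adjusted p under 0.05 (limma, Benjamini-Hochberg, as for every adjusted p below) with a log2 fold change of at least 1 in size. On this rule 4 members were higher, against 7.23% of the 15994 genes tested, and 0 were lower, against 7.43%. At an unadjusted p under 0.05, limma, DESeq2 and edgeR each gave 6 members higher and 0 lower, and each tool called 4 higher and 0 lower by the full rule. The share of all tested genes at an unadjusted p was not counted, here or for the lists below. For limma it is no smaller than the share by adjusted p alone, so counts at an unadjusted p are not read as results. By adjusted p alone 5 members were higher and 0 lower, where 29.3% of all tested genes were higher and 28.3% lower, 57.6% in all. In 6 members the 3 NRF2null-KYSE70 libraries all lay above the 3 KYSE70 libraries, and in 0 they all lay below, which was so for 32.1% and 31.3% of tested genes, 63.4% in all. The median log2 fold change of the 7 tested members was 2.89, beside -0.01 over all tested genes. That median covers the 7 genes that passed the filter on low values and not all 10. Because the set was chosen with earlier results of these data known, its counts and median beside those of all genes describe the set and test nothing. The shares of all tested genes given above also apply beside the counts of every other list named here.

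**Figure D1:**
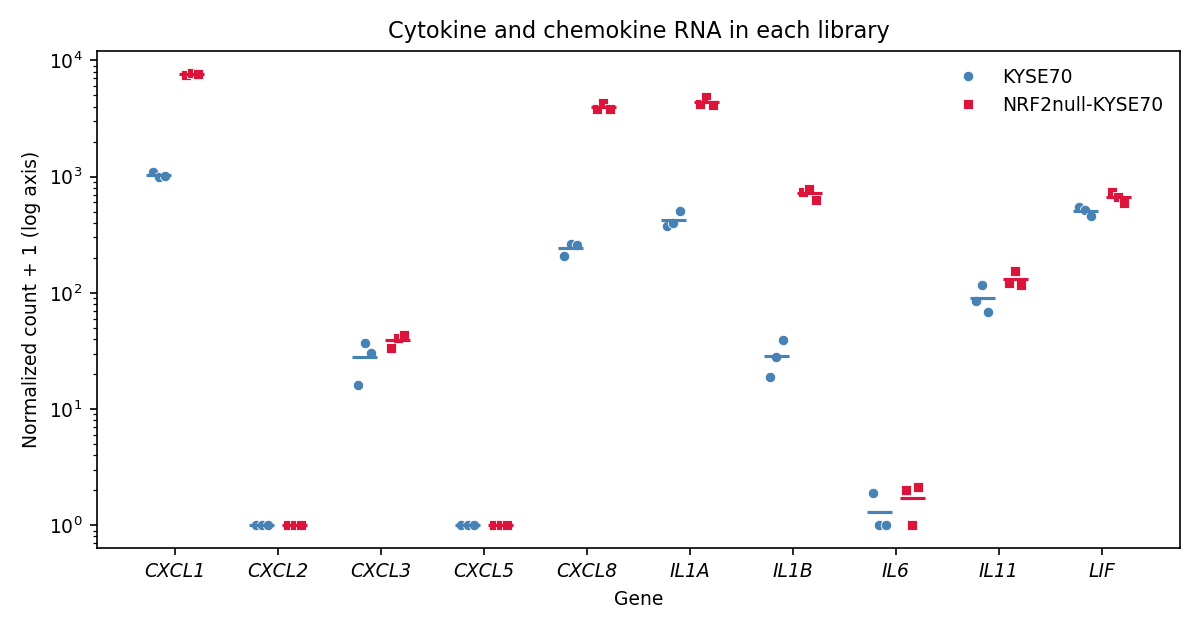
Normalized count plus 1 on a log axis for each of the 10 genes, with 1 point per library (circles, KYSE70; squares, NRF2null-KYSE70; 3 each) and a bar at the mean. CXCL1, CXCL8, IL1A and IL1B separate widely, LIF and IL11 by little, CXCL3 overlaps, and CXCL2 and CXCL5 stay at 0.

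CXCL1, a CXCR2 ligand first described as a melanoma growth factor, was the most abundant of these transcripts per kilobase of exon in both lines. Its normalized counts were 1086, 989 and 1014 in KYSE70 and 7457, 7742 and 7685 in NRF2null-KYSE70. The libraries within each line lay close together, with a coefficient of variation of 4.89% in KYSE70 and 1.98% in NRF2null-KYSE70. The means were 1030 ± 50.3 and 7628 ± 151 (SD, n = 3 each), a 7.41-fold rise. The log2 fold change was 2.89 with an SE of 0.056 and a limma adjusted p of 8.88e-13.

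CXCL8, or interleukin-8, a ligand of both CXCR1 and CXCR2, rose more steeply than CXCL1 from a lower level. It stood at 208, 264 and 256 in KYSE70 and at 3805, 4266 and 3786 in NRF2null-KYSE70. The lowest library of the null line thus lay far above the highest parental library. The means of 243 ± 30.3 and 3952 ± 272 (SD, n = 3 each) differed 16.3-fold, with a log2 fold change of 4.02, an SE of 0.098 and a limma adjusted p of 7.04e-12.

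CXCL3, a CXCR2 ligand close in sequence to CXCL1, did not follow it. Its values were 15.1, 36.3 and 29.5 in KYSE70 and 32.5, 40.2 and 42.2 in NRF2null-KYSE70, so the groups overlapped. The log2 fold change was 0.57 (95% interval from -0.25 to 1.39, adjusted p = 0.22), an interval that covers no change as well as a rise above the cut-off. Per kilobase of exon, the level of CXCL3 relative to CXCL1 went from 0.0163 ± 0.00712 to 0.00308 ± 0.000364 (SD, n = 3 each). The ratios did not overlap, and the exact two-sided permutation p of 0.1 is the smallest that 3 against 3 can give.

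CXCL2 and CXCL5, also CXCR2 ligands, were listed at 0 in all 6 libraries. Of 75 genes for mitochondrial ribosomal proteins, which every cell uses, 1 (MRPL53, looked up after the values were seen) was also listed at 0, and so were the broadly expressed genes PYCARD and GSDMD. Whether CXCL2 and CXCL5 were not transcribed or their reads were lost in counting was therefore not tested. Among all stretches of read length in the annotated transcripts, 1.96% of those of CXCL2 also occur in CXCL3, 2.45% of those of CXCL5 occur in an unnamed gene on the other strand, and none of those of CXCL1 or CXCL8 occur in another gene. Shared sequence thus covers a small share of either gene.

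The 5 chemokine genes have unequal levels and share a short promoter word, so 70 bases of each promoter, from 120 to 51 bases before the start, are shown from RefSeq on GRCh38.p14. Promoters were found for 9 of the 10 members, all but LIF. Each was searched from 250 bases before to 50 bases after the start, a wider window than the bases shown. In each line the capitals mark a match to GGANTTTCC, a word of the type bound by NF-kappaB.
CXCL1 (chr4:73869273-73869342, plus strand): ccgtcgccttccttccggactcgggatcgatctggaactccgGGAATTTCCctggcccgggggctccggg
CXCL2 (chr4:74099246-74099315, minus strand): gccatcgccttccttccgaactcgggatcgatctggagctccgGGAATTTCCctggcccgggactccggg
CXCL3 (chr4:74038740-74038809, minus strand): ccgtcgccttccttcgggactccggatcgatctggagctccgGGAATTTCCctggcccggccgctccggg
CXCL5 (chr4:73998728-73998797, minus strand): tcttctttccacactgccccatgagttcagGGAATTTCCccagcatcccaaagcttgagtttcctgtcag
CXCL8 (chr4:73740449-73740518, plus strand): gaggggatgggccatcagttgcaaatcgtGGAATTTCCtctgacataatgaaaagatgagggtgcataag
All 5 hold the same letters, GGAATTTCC, which begin between 77 and 91 bases before the start. CXCL1 and CXCL8, which rose, CXCL3, which did not pass the test, and CXCL2 and CXCL5, listed at 0, therefore do not differ in this word. On either strand the pattern occurs in 1.64% of 35116 promoters searched in the same way, not over the bases shown alone. CXCL1 shares 86.4% of aligned promoter bases with CXCL3 and 82.7% with CXCL2. Of the chemokine promoters, CXCL8 alone also holds TGANTCA, 137 bases before its start, an AP-1 type word found in 7.71% of promoters, and none of the 5 holds TGACNNNGC, the core of the antioxidant response element, found in 13.3%. Outside the chemokines, IL6 holds GGATTTTCC, which fits the same pattern, 72 bases before its start. IL11 holds an AP-1 type word 96 bases before its start. A match is a description of letters and not a site of binding.

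The chemokine members lie in 1 cluster on chromosome 4 (hg38, GENCODE annotation). CXCL8 spans chr4:73740519-73743716 and CXCL1 spans chr4:73869393-73871308, both on the plus strand. CXCL5 (chr4:73995642-73998677), CXCL3 (chr4:74036589-74038807) and CXCL2 (chr4:74097040-74099196) follow on the minus strand. Of 11 listed neighbours, 5 were tested, and 2 of them, AREG and EREG, were higher while 0 were lower. AREG, which encodes the EGF receptor ligand amphiregulin, stood at 2266, 2377 and 2421 in KYSE70 and at 18428, 19454 and 18031 in NRF2null-KYSE70, with a rise of 2.98 on the log2 scale (SE 0.050, adjusted p = 2.81e-13). EREG, which encodes epiregulin, had 1 read over the 3 KYSE70 libraries and values of 41.6, 12.8 and 21.7 in NRF2null-KYSE70, and fell under the filter without the first library of that line. EREG was thus tested only because of its NRF2null-KYSE70 values. MTHFD2L, a mitochondrial folate enzyme gene between CXCL2 and AREG, overlapped between the lines (log2 fold change 0.15, adjusted p = 0.478), and RASSF6 on the far side of CXCL8 was below the cut-off at -0.64. The rise was thus uneven along the cluster, with genes listed at 0 (PF4, PF4V1 and PPBP, platelet chemokines) between the ones that rose.

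**Figure D2:**
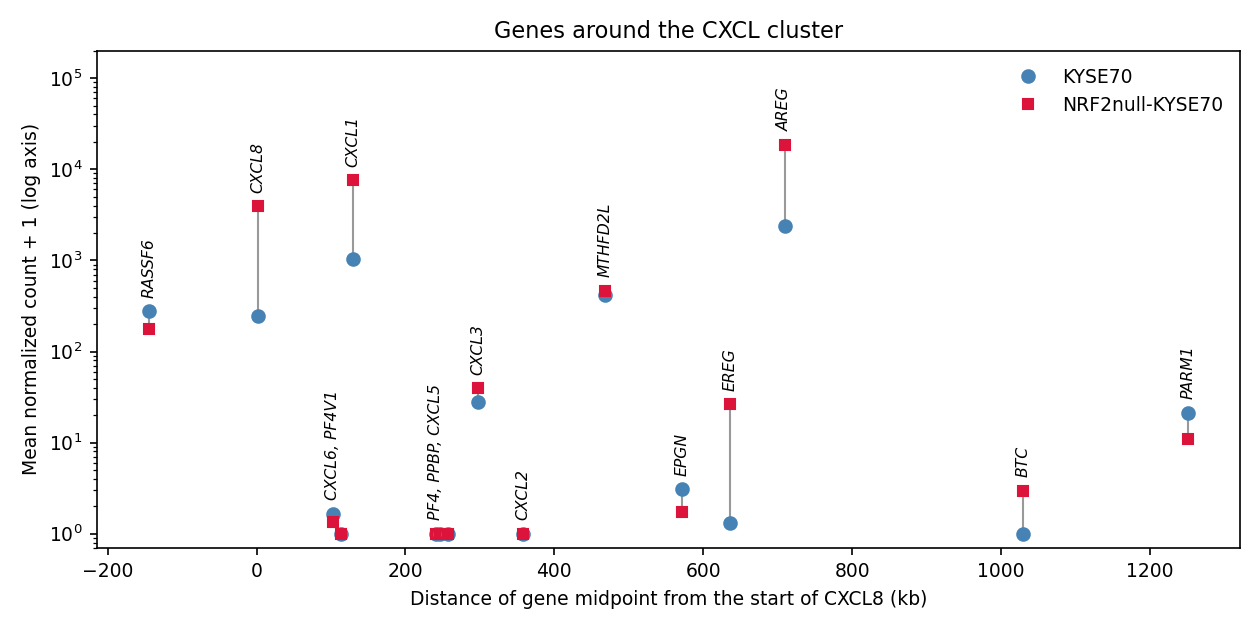
Mean normalized count plus 1 on a log axis (3 libraries per line; circles, KYSE70; squares, NRF2null-KYSE70) against the distance of each gene's midpoint from the start of CXCL8 in kilobases. CXCL8, CXCL1, EREG and AREG are higher in NRF2null-KYSE70, with genes between them that overlap or are listed at 0.

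IL1A, the alarmin that acts when cells are damaged, was the second most abundant member per kilobase of exon in both lines. Its normalized counts were 372, 395 and 505 in KYSE70 and 4208, 4799 and 4159 in NRF2null-KYSE70. Every null library held several times the highest parental value. The means of 424 ± 71.3 and 4389 ± 356 (SD, n = 3 each) gave a 10.4-fold rise, with a log2 fold change of 3.38, an SE of 0.106 and a limma adjusted p of 6.22e-11.

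IL1B, the IL-1 form whose protein must be cleaved before release, had the steepest rise of the 10. It stood at 17.8, 27.2 and 38.0 in KYSE70 and at 731, 783 and 630 in NRF2null-KYSE70. The parental values were low and spread, with a coefficient of variation of 36.5%. The means of 27.7 ± 10.1 and 715 ± 78.0 (SD, n = 3 each) differed 25.9-fold, with a log2 fold change of 4.70 (95% interval 4.18 to 5.22, SE 0.241, adjusted p = 5.53e-09). Per kilobase of exon, IL1B relative to IL1A went from 0.0429 ± 0.00960 to 0.109 ± 0.00746 without overlap (SD, n = 3 each; exact two-sided permutation p = 0.1, the smallest that 3 against 3 can give).

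Both IL1 genes lie on the minus strand of chromosome 2, IL1A at chr2:112773925-112784493 and IL1B at chr2:112829751-112836816. Neither promoter held GGANTTTCC from 250 bases before to 50 bases after the start. Other forms of the word and sites farther away were not searched. Whether the word has a part in any of the rises was not tested. IL1A held an antioxidant response element core, TGACGACGC, which begins 76 bases before the start. This core is shown in capitals within the stretch from 120 to 51 bases before the start, as above. IL1A also held AP-1 type words, one of them 12 bases before the start. RefSeq lists a further IL1A promoter with a start downstream of this one, from which the same core begins 169 bases before and the AP-1 type words 105 and 55 bases before.
IL1A (chr2:112784544-112784613, minus strand): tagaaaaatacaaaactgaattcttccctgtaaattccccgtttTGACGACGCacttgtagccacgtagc
None of the 3 words occurred in the IL1B promoter. Of 12 neighbours on chromosome 2, 6 were tested, 1 of them (NT5DC4) was higher and 0 were lower. NT5DC4 stood at 23.3, 44.1 and 29.7 in NRF2null-KYSE70, 2.31 times the parental mean (log2 fold change 1.13, SE 0.409, adjusted p = 0.0316) and was not called by DESeq2. CKAP2L, a mitotic spindle gene next to IL1A, had a log2 fold change of 0.46, below the cut-off.

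The natural brake on IL-1, the receptor antagonist encoded by IL1RN, did not rise with the agonists. IL1RN stood at 47.1, 20.0 and 26.4 in KYSE70 and at 28.4, 17.7 and 13.7 in NRF2null-KYSE70, and the groups overlapped (log2 fold change -0.59, SE 0.436, adjusted p = 0.266). Per kilobase of exon, the summed level of IL1A and IL1B over that of IL1RN went from 30.2 ± 13.1 to 495 ± 166 (SD, n = 3 each; no overlap, exact two-sided permutation p = 0.1, the smallest that 3 against 3 can give). CASP1, the protease that matures IL-1 beta, was lower, at 1637, 1976 and 2035 in KYSE70 and 513, 526 and 597 in NRF2null-KYSE70. Its log2 fold change was -1.78 (SE 0.097, adjusted p = 8.91e-09), opposite to that of its substrate gene. Of the 12 genes of the IL-1 family and its processing, 3 were tested, 0 were higher and 1 (CASP1) was lower. IL18, a further substrate of CASP1, rose from 9962 ± 294 to 18540 ± 1315 (SD, n = 3 each) by adjusted p alone, at a log2 fold change of 0.89. At an unadjusted p under 0.05, IL18 was the 1 gene of this list that was higher by limma, DESeq2 or edgeR. PYCARD and GSDMD, the inflammasome adaptor and the pore protein that releases IL-1 beta, were listed at 0.

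LIF, a gp130 cytokine known for keeping mouse stem cells undifferentiated, changed little. It stood at 549, 516 and 456 in KYSE70 and at 740, 668 and 594 in NRF2null-KYSE70. The groups did not overlap, and the rise was 1.32-fold (log2 fold change 0.39, SE 0.110, adjusted p = 0.00789), under the cut-off. The genes LIF-AS1 and LIF-AS2 on the other strand overlap LIF and held between 0 and 11.4 normalized counts.

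IL11, a gp130 cytokine known from fibrosis and epithelial tumors, stood at 84.5, 116 and 67.5 in KYSE70 and at 121, 154 and 116 in NRF2null-KYSE70. The highest parental library and the lowest null library nearly touched (116.1 and 116.4). The log2 fold change was 0.56 (95% interval 0.06 to 1.07) with a limma adjusted p of 0.0526, which did not pass. Over the alternatives the adjusted p lay between 0.0187 and 1.00, and the fold change never reached the cut-off.

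IL6, the best known gp130 cytokine, was found with 1, 0 and 0 reads in the KYSE70 libraries and with 1, 0 and 1 in those of NRF2null-KYSE70. It was at or under the floor of 3 reads in every library, so no fold change is given. Among its stretches of read length, 4.92% also occur in IL6-AS1, which itself was listed at 0. IL6 was thus not detectable as different at this depth.

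**Figure D3:**
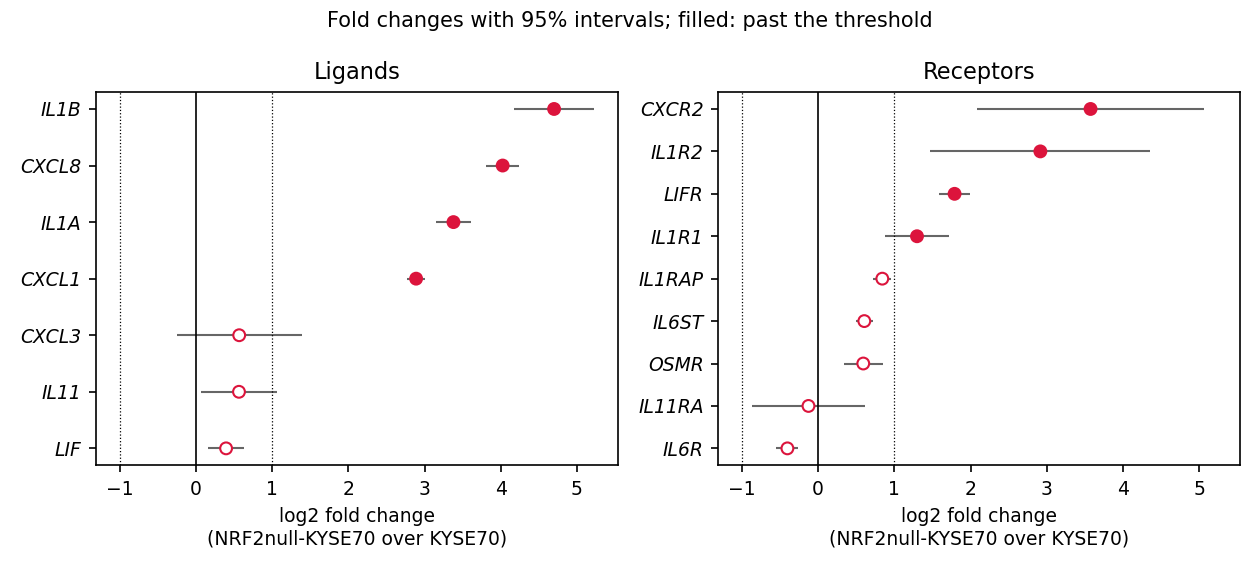
Log2 fold change (NRF2null-KYSE70 over KYSE70, 3 libraries each) with its 95% interval from limma for the 7 tested ligands and the 9 tested receptor genes. Dotted lines mark the cut-off at 1 in either direction, and filled points passed the threshold (4 ligands and 4 receptors).

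The order of levels changed between the lines. Per kilobase of exon, the KYSE70 order from high to low was CXCL1 (756 ± 37.0 normalized counts per kilobase), IL1A (210 ± 35.4), LIF (131 ± 12.2), CXCL8 (93.8 ± 11.7), IL11 (33.4 ± 9.21), CXCL3 (12.2 ± 4.87) and IL1B (9.19 ± 3.35). CXCL3 and IL1B overlapped there, while every other pair of neighbours was separate. In NRF2null-KYSE70 the order was CXCL1 (5601 ± 111), IL1A (2176 ± 177), CXCL8 (1527 ± 105), IL1B (238 ± 25.9), LIF (172 ± 19.0), IL11 (48.7 ± 7.67) and CXCL3 (17.3 ± 2.33), with no overlap between neighbours (SD, n = 3 each). CXCL8 and IL1B moved above LIF, and IL1B left the last place. The level of CXCL8 relative to CXCL1 went from 0.125 ± 0.0210 to 0.273 ± 0.0158 (SD, n = 3 each; no overlap, exact two-sided permutation p = 0.1, the smallest possible).

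Within the lines, the members did not vary together in a way that set 1 library wholly apart, with 1 exception. In the second NRF2null-KYSE70 library all 7 tested members lay above the mean of the line, by 0.01 to 0.25 on the log2 scale. In the other libraries between 2 and 5 of the 7 lay above it. The 4 rises remained past the threshold when any 1 library was left out.

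Among all tested genes, IL1B ranked 60th by rise, CXCL8 107th, IL1A 164th and CXCL1 219th. A log2 fold change of at least 2 was reached by 2.81% of tested genes, of at least 3 by 1.24% and of at least 4 by 0.675%. CXCL1 thus stood in the first of these groups, IL1A in the second, and CXCL8 and IL1B in the third.

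**Figure D4:**
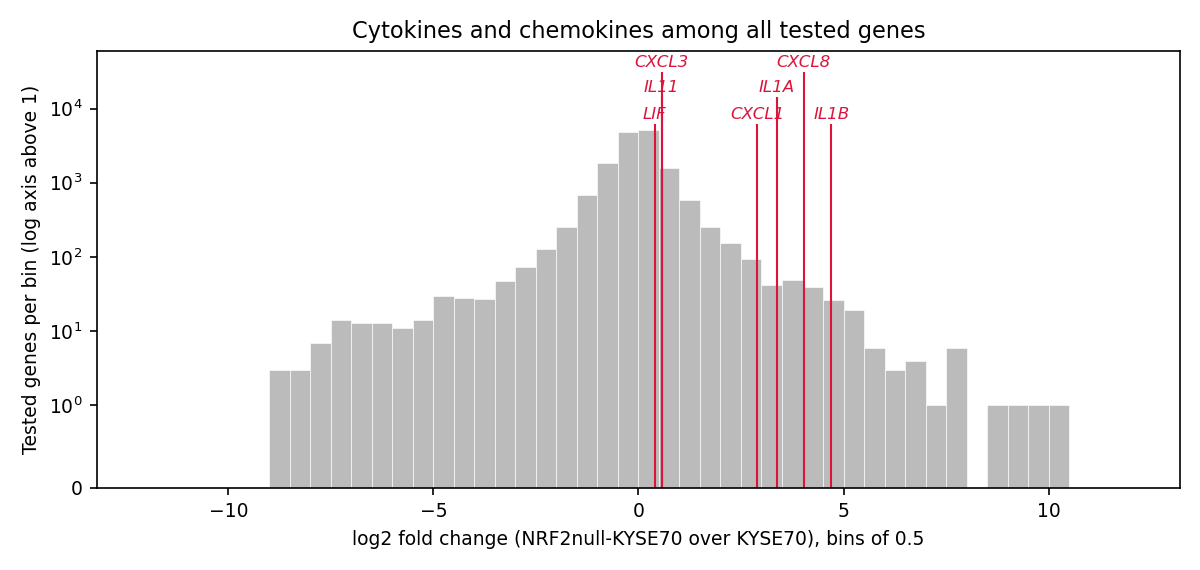
Number of tested genes in bins of 0.5 of the log2 fold change (NRF2null-KYSE70 over KYSE70; vertical axis linear up to 1 and log above), with a line at each of the 7 tested members. LIF, IL11 and CXCL3 lie in the bulk of the genes, and CXCL1, IL1A, CXCL8 and IL1B in the right tail.

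Several receptors for these ligands were also higher. Of 11 receptor genes, 9 were tested, 4 were higher and 0 were lower, where 7.23% of all tested genes were higher and 7.43% lower. The median log2 fold change of the tested receptors was 0.84, beside -0.01 over all tested genes. The list was chosen with earlier results of these data known, so its counts describe it and test nothing. CXCR2 and IL1R2, among those higher, had KYSE70 means of 2.39 and 9.36 and reached the filter only through NRF2null-KYSE70. The count and the median of the receptors therefore depend in part on the filter. By adjusted p alone 7 receptors were higher and 1 (IL6R) was lower, where 29.3% of all tested genes were higher and 28.3% lower. The counts were the same at an unadjusted p under 0.05 by limma, DESeq2 or edgeR. CXCR2, the receptor of the ELR chemokines, had 5, 3 and 0 reads in KYSE70 and stood at 34.5, 29.4 and 30.8 normalized counts in NRF2null-KYSE70 (log2 fold change 3.58, SE 0.688, adjusted p = 0.000656). These are few reads, and per kilobase of exon the NRF2null-KYSE70 level was 9.82, beside 5601 for CXCL1. Without the third KYSE70 library the log2 fold change of CXCR2 was 2.85. CXCR1 and ACKR1, a scavenger of chemokines, were listed at 0.

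IL1R1, the signalling IL-1 receptor, stood at 62.3, 68.9 and 54.8 in KYSE70 and 162, 158 and 140 in NRF2null-KYSE70 (log2 fold change 1.30, SE 0.196, adjusted p = 9.57e-05). IL1R2, the decoy receptor that binds IL-1 without signalling, stood at 9.78, 17.2 and 1.05 against 61.9, 56.9 and 46.8 (log2 fold change 2.92, SE 0.665, adjusted p = 0.00222). Both the signalling and the decoy receptor were therefore higher, without overlap. The log2 fold change of IL1R2 was 3.57 without the second KYSE70 library and 1.99 without the third. Their partner chain IL1RAP rose from 6438 ± 410 to 11532 ± 440 (SD, n = 3 each), a log2 fold change of 0.84 that passed by adjusted p (4.94e-08, limma) but not the cut-off.

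Of the gp130 receptors, LIFR, a receptor chain for LIF but not for LIF alone, stood at 673, 709 and 609 in KYSE70. In NRF2null-KYSE70 it stood at 2618, 2229 and 2072 (log2 fold change 1.79, SE 0.093, adjusted p = 6.13e-09). LIFR thus rose more than LIF, although the difference between the changes was not tested. The shared chain IL6ST (log2 fold change 0.61, adjusted p = 6.76e-07) and OSMR, the oncostatin M receptor (0.59, 0.000867), were higher below the cut-off. IL6R, the specific chain for IL6, was lower below the cut-off (-0.40, adjusted p = 0.000192). IL11RA, the specific chain for IL11, stood at 39.1, 50.8 and 39.0 against 24.3, 45.1 and 53.7 and overlapped (log2 fold change -0.13, adjusted p = 0.773). Its sign turned under quantile normalization (0.0014) and without the first NRF2null-KYSE70 library (0.20), so no direction is given.

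Downstream of the IL-1 receptor, all 25 listed genes of the pathway to NF-kappaB were tested, 1 (RELB) was higher and 0 were lower. At an unadjusted p under 0.05 limma gave 10 higher and 3 lower, DESeq2 10 and 1, and edgeR 10 and 3. By limma adjusted p alone 29.3% of all tested genes were already higher and 28.3% lower, so these counts do not show a rise of the pathway. RELB, an NF-kappaB subunit of the non-canonical branch, stood at 245, 170 and 206 in KYSE70 and at 560, 614 and 524 in NRF2null-KYSE70 (log2 fold change 1.46, SE 0.143, adjusted p = 2.07e-06). Its partner NFKB2 was higher by adjusted p alone (log2 fold change 0.94, adjusted p = 1.63e-08). NFKBIA, which encodes the inhibitor IkappaB-alpha and is a usual NF-kappaB target, stood at 1527 ± 47.8 and 1525 ± 87.2 (SD, n = 3 each), and its groups overlapped. TNFAIP3, a further target, had a log2 fold change of 0.11 with a limma adjusted p of 0.404. NFKB2, NFKBIA and TNFAIP3 were picked for naming after their values were seen. The list's median log2 fold change was 0.08.

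In the gp130 pathway, all 11 listed genes were tested, 0 were higher and 2 (JAK1 and SOCS1) were lower, and 3 were higher and 6 lower at an unadjusted p under 0.05 by limma, DESeq2 and edgeR alike. JAK1, the main kinase of gp130, stood at 1788, 1730 and 1734 in KYSE70 and at 210, 239 and 223 in NRF2null-KYSE70. The libraries within each line were close, and NRF2null-KYSE70 held 12.8% of the parental mean (log2 fold change -2.96, SE 0.088, adjusted p = 4.22e-11). JAK1 was thus low in the line in which LIFR and IL6ST were higher. SOCS1, an inhibitor of JAK kinases, fell from 42.9 to 15.9 (log2 fold change -1.34, adjusted p = 0.00674). SOCS3, the feedback inhibitor of gp130, rose by adjusted p alone (log2 fold change 0.84, adjusted p = 9.43e-05), and was picked for naming after its values were seen.

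Among 33 other chemokines, 7 were tested, 3 were higher and 0 were lower. These 3, CX3CL1, CXCL9 and CCL22, had KYSE70 means of 2.72, 4.51 and 0.901, under the filter at a mean of 10. They were tested only because of their NRF2null-KYSE70 values, so the count of higher genes depends in part on the filter. DESeq2, run without the filter on low values, called 4 higher and 1 lower, and edgeR 3 and 0. At an unadjusted p under 0.05 limma gave 3 higher and 1 lower, DESeq2 5 and 2, and edgeR 3 and 1. CX3CL1, or fractalkine, which is anchored to the membrane and draws T cells and monocytes, stood at 7.11, 0 and 1.05 in KYSE70 and at 72.0, 83.3 and 92.5 in NRF2null-KYSE70 (log2 fold change 5.03, SE 0.674, adjusted p = 3.47e-05). Without the first KYSE70 library the log2 fold change of CX3CL1 was 5.86, and without the second it was 4.35. CXCL9, a ligand of CXCR3 on T cells, stood at 2.67, 4.54 and 6.33 against 33.5, 29.4 and 14.8 (log2 fold change 2.27, SE 0.555, adjusted p = 0.00362). CCL22, a ligand of CCR4, had 3 reads over the KYSE70 libraries and values of 16.2, 12.7 and 35.4 in NRF2null-KYSE70, and fell under the filter without the third library of that line. Per kilobase of exon the NRF2null-KYSE70 means of CX3CL1, CXCL9 and CCL22 were 13.9, 9.38 and 7.36, far below those of CXCL1 (5601) and CXCL8 (1527). A further 26 chemokine genes were not tested, 11 of them without a read.

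Among 29 other cytokines, 8 were tested, 0 were higher and 2 (CNTF and IL15) were lower. At an unadjusted p under 0.05 limma gave 1 higher and 4 lower, DESeq2 1 and 6, and edgeR 1 and 5. CNTF, a gp130 ligand, stood at 37.3, 41.7 and 29.5 against 9.13, 21.6 and 18.3 (log2 fold change -1.17, SE 0.411, adjusted p = 0.0274). IL15, a growth factor of T and NK cells, stood at 45.4, 39.9 and 17.9 against 5.07, 14.7 and 18.3 and overlapped (log2 fold change -1.43, SE 0.534, adjusted p = 0.0359). Each of these calls was lost under 7 of 17 alternatives. DESeq2 called 2 lower and edgeR 3. Both called TSLP, an epithelial cytokine named after its values were seen, which had 26, 15 and 16 reads in KYSE70 and 2, 0 and 1 in NRF2null-KYSE70 and lay under the filter of the limma fit.

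The 14 listed genes that bind or degrade cytokine mRNA, such as ZFP36 and ZC3H12A, were all tested and 0 passed in either direction by limma, DESeq2 or edgeR. At an unadjusted p under 0.05 limma gave 4 higher and 4 lower. By adjusted p alone 3 were higher and 3 were lower, and the list's median log2 fold change was -0.05. Over all these lists of receptors, signalling genes, other ligands and neighbours, 147 genes in all, 87 were tested, 11 were higher and 5 were lower, with a median log2 fold change of 0.08. Of the higher genes, CXCR2, IL1R2, CX3CL1, CXCL9, CCL22 and EREG reached the filter only through NRF2null-KYSE70.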

How the data were processed

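RNA from 3 libraries each of KYSE70 and NRF2null-KYSE70 was sequenced. Per the labels and the study's methods, the authors used FastQC 0.11.5, cutadapt 1.12, STAR 2.6.90c to hg38, featureCounts 1.5.1 and DESeq2. Strand and multiple alignments in counting were not stated. The deposited values are a signal in normalized counts, reads divided by 1 size factor per library. Columns name only the cell line, and libraries are numbered by column order. Whole reads were recovered for 100% of values, within a tolerance of 0.1 reads, and DESeq2 and edgeR were run on them as alternatives. No 2 libraries agreed within sampling noise. Over all tested genes, the first NRF2null-KYSE70 library lay farthest from the others of its line. Its chi-square per degree of freedom was 25.6 with the second and 24.9 with the third, and 4.73 between those. The labels do not say that libraries came from separate cultures, so p-values may measure technical spread.

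limma 3.58.1 (R 4.3.3) was fitted with a mean-variance trend to log2(normalized count + 1) of the 15994 genes with a mean of at least 10. This can understate or overstate changes of low genes. The log2 fold change of EREG was 4.26 by limma, 6.22 by DESeq2 and 5.86 by edgeR, and that of IL1R2 was 2.92, 2.54 and 2.51. P-values are two-sided with Benjamini-Hochberg adjustment. DESeq2 was version 1.42.0 and edgeR 4.0.16. In counts simulated with the same dispersion for every gene, the threshold recovered 100% of 4-fold and 51% of 2-fold changes (90% by adjusted p). A 2-fold change lies on the cut-off itself, so the 51% does not measure power. Real genes differ in spread, so these figures are not the sensitivity of the real comparison. The 95% intervals come from the spread between libraries, and floors of 3 reads cover counting error only. Exon lengths came from GENCODE on hg38, whereas the methods name RefSeq and the table has Ensembl identifiers, so levels per kilobase depend on an annotation that may differ from the one counted. The members and lists were chosen with earlier results of these data known. Named were all members, tested receptors, and up to 5 called genes per other list by fold change, and any further gene was picked for naming with its values in view. Alternatives changed the pseudocount, filter, scaling, tool and threshold, and left out each library in turn.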

Additional observations from a re-analysis of the deposited data

How the results depend on the processing

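The counts of members past the threshold, 4 higher and 0 lower, were the same under 18 of 19 alternatives, the adjusted p alone giving 5 higher, and ran from 4 to 4 and from 0 to 0 with each library left out. Over the alternatives the log2 fold change lay between 2.81 and 2.93 for CXCL1, 3.92 and 4.09 for CXCL8, 3.29 and 3.51 for IL1A and 4.43 and 4.95 for IL1B. Among the genes of the other lists (11 higher and 5 lower), a filter at a mean of 50 left 4 higher and 2 lower, since it tested fewer genes. The adjusted p alone gave 33 higher and 18 lower, and a test against the cut-off itself (treat) gave 6 and 2. Leaving out a library gave 10 to 12 higher and 3 to 6 lower, with 3 lower without the first or the second KYSE70 library, where CNTF and IL15 were lost. Over all tested genes (1156 higher and 1188 lower), the adjusted p alone gave 4687 and 4519, and treat 541 and 429. The filter at a mean of 50 gave 727 lower, and leaving out a library gave 1060 to 1164 higher and 1068 to 1242 lower. CNTF, IL15 and NT5DC4 lost their calls under 7 alternatives each, and CXCL9, IL1R1, IL1R2, RELB and SOCS1 under treat. No call turned its direction, but IL11RA, not called, turned its sign as given with its values. Total scaling moved the median of all genes from -0.01 to -0.08, and no call among the members changed with it. No paired analysis was possible because the columns carry no replicate numbers. The single clone and the few reads of CXCR2, IL1R2, CCL22 and EREG limit what these data show.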
